A study of Mus musculus with 9 samples.

Results

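CpG methylation was examined at 9 genes of the DNA methylation machinery: the methyltransferase genes Dnmt1, Dnmt3a, Dnmt3b and Dnmt3l, the maintenance cofactor Uhrf1, the dioxygenase genes Tet1, Tet2 and Tet3, and the glycosylase gene Tdg. Their CpGs were those lying from 2 kb outside one gene end to 2 kb outside the other and read at least 1 time in each of the 9 libraries. That left 1034 CpGs of 1096949 in the whole series, out of 2061 that any library covered at these genes. The cells were Abl.1, 1 clone of immortalised B cells. The line is female and its parents were of the strains 129S1/SvImJ and CAST/EiJ (an F1 cross). They were grown to day 2 in medium with 1% DMSO as the control (2 libraries) or with the drug 5-aza-dC (decitabine, a cytidine analogue) at 0.2 µM (2 libraries), 2 µM (3 libraries) or 10 µM (2 libraries). Live cells were recovered on a density gradient, and methylation was read by reduced representation bisulfite sequencing (RRBS), which samples CpG-rich fragments of the genome. The labels call the replicates library preparations and name no separate cultures, so p-values measure the spread between these libraries, which may be technical. The series is titled for the part that DNA methylation plays in expression from 1 allele.

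DNMT1, guided by UHRF1 to newly copied DNA, restores methylation on the new strand after replication. DNMT3A and DNMT3B place methylation at unmethylated sites, and DNMT3L, made mainly in germ cells and early embryos, stimulates them without activity of its own. TET1, TET2 and TET3 oxidise the methyl group, and TDG excises the later oxidation products so that repair can restore plain cytosine. 5-aza-dC enters DNA during replication and traps DNA methyltransferases there, so these genes encode both the targets of the drug and the enzymes that work against them. Active mammalian genes usually have an unmethylated CpG island at the start and a methylated body.

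The genes were located in mouse build GRCm38 (mm10). Dnmt1 lies at chr9:20907206-20959888 on the minus strand, with 94 CpGs shared by the 9 libraries, and Uhrf1 at chr17:56303337-56323486 on the plus strand, with 106. Dnmt3a, at chr12:3801559-3914443 on the plus strand, had the most shared CpGs, 303. Dnmt3b, at chr2:153649411-153687730 on the plus strand, had 114. Dnmt3l, at chr10:78042287-78063622 on the plus strand, had only 6. Of the TET genes, Tet1 is at chr10:62804570-62887469 with 80 CpGs, Tet2 at chr3:133463677-133545136 with 88 and Tet3 at chr6:83362373-83457208 with 199, all on the minus strand. Tdg, at chr10:82629814-82650799 on the plus strand, had 44. The span of Dnmt3l reaches into Aire and that of Tdg into Glt8d2, and non-coding genes overlap Dnmt1, Dnmt3a, Tet1 and Tet3, so some CpGs belong to a neighbour as well.

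Starts differed widely in CpG content, which bears on what RRBS could read, and 5 of the 16 annotated starts are printed to show that range. Each run is 300 bases of RefSeq sequence (GRCm38.p6), 250 before the first transcribed base and 50 after it, written 5′ to 3′ on the strand of the gene, with every CG in capitals.
Dnmt1 start 1, chr9:20959839-20960138, minus strand: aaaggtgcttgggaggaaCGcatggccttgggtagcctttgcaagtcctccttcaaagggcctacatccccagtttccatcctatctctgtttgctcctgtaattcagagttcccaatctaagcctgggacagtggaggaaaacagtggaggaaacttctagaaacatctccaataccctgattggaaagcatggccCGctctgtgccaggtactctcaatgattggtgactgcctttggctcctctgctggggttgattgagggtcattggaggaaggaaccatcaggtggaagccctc
Dnmt1 start 3, chr9:20952574-20952873, minus strand: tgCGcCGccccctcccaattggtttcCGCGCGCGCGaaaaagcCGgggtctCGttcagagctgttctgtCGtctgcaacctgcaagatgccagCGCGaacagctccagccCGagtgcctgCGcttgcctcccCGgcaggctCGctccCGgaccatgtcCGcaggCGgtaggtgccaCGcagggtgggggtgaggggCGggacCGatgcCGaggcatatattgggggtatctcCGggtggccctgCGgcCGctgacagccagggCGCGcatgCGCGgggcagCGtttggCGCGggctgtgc
Dnmt3l start 1, chr10:78042037-78042336, plus strand: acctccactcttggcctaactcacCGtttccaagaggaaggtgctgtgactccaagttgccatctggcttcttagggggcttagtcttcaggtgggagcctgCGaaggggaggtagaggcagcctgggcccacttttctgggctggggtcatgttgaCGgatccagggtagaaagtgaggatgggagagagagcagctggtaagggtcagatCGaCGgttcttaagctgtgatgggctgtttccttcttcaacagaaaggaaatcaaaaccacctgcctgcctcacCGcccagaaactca
Tet1 start, chr10:62887275-62887574, minus strand: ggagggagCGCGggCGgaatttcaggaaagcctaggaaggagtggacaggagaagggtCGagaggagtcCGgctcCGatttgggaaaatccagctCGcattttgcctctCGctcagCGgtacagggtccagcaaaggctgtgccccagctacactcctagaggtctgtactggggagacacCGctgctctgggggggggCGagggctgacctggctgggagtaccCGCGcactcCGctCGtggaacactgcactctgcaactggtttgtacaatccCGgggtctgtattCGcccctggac
Tet3 start, chr6:83441629-83441928, minus strand: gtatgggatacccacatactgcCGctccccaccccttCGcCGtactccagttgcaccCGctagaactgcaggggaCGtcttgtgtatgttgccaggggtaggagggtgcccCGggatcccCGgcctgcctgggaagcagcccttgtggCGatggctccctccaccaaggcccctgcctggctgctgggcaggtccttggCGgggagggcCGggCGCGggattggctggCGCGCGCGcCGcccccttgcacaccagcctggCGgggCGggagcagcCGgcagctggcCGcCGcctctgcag
The first Dnmt1 start, the one annotated farthest upstream, held 2 CGs and the third held 33. Dnmt3l held 6 at its first start, Tet1 17 and Tet3 22. The median of 32841 mouse promoters of this length was 7, and Tet2, with 57, exceeded 99.8% of them. No library read any CpG inside the 300 bases of the first Dnmt1 start or of the first Dnmt3l start. At the third Dnmt1 start 25 of the 33 CGs were read in all 9 libraries, at the Tet3 start 21 of 22, and at the Tet1 start only 1 of 17.

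A level is the mean over the CpGs of a window of methylated reads over all reads. It averages over all cells and both parental alleles, so fewer methylated cells and fewer methylated copies per cell cannot be told apart. Errors are SDs over the libraries of a group (n = 3 for 2 µM, otherwise n = 2). Over the 1034 CpGs the mean level was 27.6% in DMSO, 9.25% at 0.2 µM, 16.8% with 2 µM and 22.8% with 10 µM. The 552 CpGs within 500 bp of an annotated start averaged 4.65% in DMSO, and 483 of them were under 10%. The 346 CpGs more than 2 kb from any annotated start averaged 66.8%, and 218 of them were at 80% or more. Most CpGs near a start were thus at low levels in the control cells and most of those far from any start at high levels; the starts of Tet1, Tet3 and Dnmt3l differed. The lowest dose had the lowest level in both places. At the far CpGs the means were 22.1% at 0.2 µM, 40.2% with 2 µM and 53.3% with 10 µM.

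Most CpG island starts of these genes were close to unmethylated in every group, and none of those passed the test. The 12 starts with enough reads (at least 3 CpGs and 10 reads in each library, within 500 bp of the start) belonged to 8 of the 9 genes. For Dnmt1, the maintenance enzyme, the third start (41 CpGs, 379 to 1058 reads per library) was at 0.686 and 0.106% in the DMSO libraries and between 0.116 and 1.01% in the 7 treated libraries. The second Dnmt1 start, which shares CpGs with the third, ranged from 0 to 0.866% over the 9 libraries. At Dnmt3a, a de novo methyltransferase gene, the first and second starts (134 and 150 CpGs, many of them shared) stayed between 0.0439 and 0.816% in every library. The third start, deep in the gene (12 CpGs), was at 0% in the DMSO and 0.2 µM libraries and between 0.833 and 4.17% at 2 and 10 µM, a difference that did not pass the test (adjusted p = 0.101 and 0.239). For Dnmt3b, the other de novo enzyme, the 81 start CpGs were between 0.206 and 1.45%. At Tet2 the 71 start CpGs were between 0.241 and 0.987%, and at Tdg the 43 start CpGs between 0 and 1.88%. The second Uhrf1 start (54 CpGs) was at 0.0514 and 0.128% in DMSO and at most 0.844% in any treated library. All adjusted p-values against DMSO for these starts were 0.0969 or higher.

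Tet1, Tet3 and the first Uhrf1 start were the exceptions. At Tet1 the 32 shared CpGs all lay 40 to 476 bp after the start, so the side before it was not measured. The Tet1 start on these CpGs (137 to 411 reads per library) was at 36.6 and 31.1% in DMSO. It fell to 9.84 and 8.54% at 0.2 µM, and was at 19.8, 12.7 and 23.9% with 2 µM and at 33.5 and 27.6% with 10 µM. Both 0.2 µM libraries lay far below both DMSO libraries, all 2 µM libraries lay between those groups, and the 10 µM libraries overlapped the DMSO libraries. The group means were 33.9 ± 3.89% (SD, n = 2), 9.19 ± 0.925% (n = 2), 18.8 ± 5.69% (n = 3) and 30.6 ± 4.18% (n = 2). Against DMSO the adjusted p was 0.000462 at 0.2 µM, 0.0137 with 2 µM and 0.784 with 10 µM. The 2 µM call was lost without DMSO replicate 1 (adjusted p = 0.155), with every covered CpG (0.244) and with at least 5 reads per CpG (0.422), where the change was -4.62 points against -15.1. Within that start the level was uneven. CpGs 94 to 106 bp after the start (3 CpGs, 12 to 48 reads) were at 87.7 and 76.7% in DMSO and at 42.4 and 43.8% at 0.2 µM. The other 29 CpGs averaged 28.9% in DMSO and 5.68% at 0.2 µM. Farther in, 1035 to 1420 bp after the start, 15 CpGs averaged 8.89% in DMSO. These stretches were chosen after their values were seen and were not tested.

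At Tet3 the annotated start lies inside the gene (39 CpGs, 200 to 557 reads per library). Its DMSO libraries were far apart, at 35.6 and 22.2%. The 0.2 µM libraries, at 19.9 and 11.7%, were both below them, whereas the 2 µM libraries (17.1, 27.6 and 21.4%) and the 10 µM libraries (31.1 and 34.9%) overlapped them. Adjusted p was 0.0283 at 0.2 µM, 0.238 with 2 µM and 0.931 with 10 µM. The call at 0.2 µM was lost without DMSO replicate 1 (0.499) and without 0.2 µM replicate 2 (0.153). The level was uneven here too. The 19 CpGs within 94 bp of it averaged 17.0 ± 9.37% in DMSO, and the 6 CpGs 174 to 251 bp before it 50.3 ± 23.9%. The outermost Tet3 end in the gene table is a separate one, shared with the non-coding gene B230319C09Rik. There the window of 72 CpGs from 2 kb outside to 1 kb inside was at 4.57 and 4.74% in DMSO and at 2.02 and 1.10% at 0.2 µM (adjusted p = 0.00233). It was at 1.73, 1.98 and 2.18% at 2 µM (adjusted p = 0.00984, or 0.0878 without DMSO replicate 1). The fall lay in 3 CpGs found 1249 to 1311 bp outside the end (15 to 46 reads), at 96.3 and 100% in DMSO and at 21.1 and 19.4% at 0.2 µM. The other 69 CpGs, inside the gene, averaged 0.592% in DMSO and 0.745% at 0.2 µM. With windows of 1 kb or 500 bp either side of that end, the mean at 0.2 µM was 0.153 and 0.530 points above DMSO.

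Uhrf1, which recruits DNMT1, has an upstream start close to the island of its second start. That first start (19 CpGs, 153 to 368 reads) was at 8.24 and 9.77% in DMSO and at 3.44 and 3.56% at 0.2 µM (adjusted p = 0.0196). Levels at 2 µM were 4.48, 8.64 and 9.14% and with 10 µM 9.73 and 10.0%. Replicate 1 of the 2 µM group was thus near the 0.2 µM libraries, and the other 4 libraries at these doses were near those of DMSO. The methylation was at the upstream edge of this window, in 2 CpGs 472 and 492 bp before the first start (7 to 32 reads). They were at 76.0 and 92.9% in DMSO and at 32.6 and 30.9% at 0.2 µM, while the other 17 CpGs averaged 0.134% in DMSO. Leaving out any 1 of the 4 libraries compared ended the call at 0.2 µM, with adjusted p between 0.0532 and 0.0820. At Dnmt3b, too, methylation lay to one side of the start. The 20 CpGs 554 to 933 bp after the start were at 24.3 and 43.6% in DMSO, at 4.97 and 6.80% at 0.2 µM, and between 9.36 and 19.1% in all libraries at the higher doses. The start window of Dnmt3b, which holds those CpGs (103 in all), fell from 8.48 ± 3.20% in DMSO to 2.24 ± 0.654% at 0.2 µM and 3.25 ± 0.783% with 2 µM (adjusted p = 0.00232 and 0.00919). At 10 µM it was 4.24 ± 0.0234% (adjusted p = 0.170). Within 500 bp of the outer end the mean at 0.2 µM was 0.0563 points above DMSO.

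Among the annotated starts, 3 of the 12 (Tet1, Tet3 and the first Uhrf1 start) were lower with 0.2 µM than in DMSO, where 25.8% of 14234 starts of all genes were. At 2 µM it was 1 of 12 (Tet1) against 18.6%, and at 10 µM 0 of 12 against 3.11% (quasi-binomial test with limma; 0 at an unadjusted p under 0.05, the smallest being 0.0675). The count at 0.2 µM was 1 without DMSO replicate 1, without 0.2 µM replicate 2, with at least 5 reads per CpG, with summed reads and in fits of the groups compared. The median level of the 12 starts in DMSO was 0.345%, and over all genes it was 0.778%. The members' shares were close to those of all genes.

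**Figure D1:**
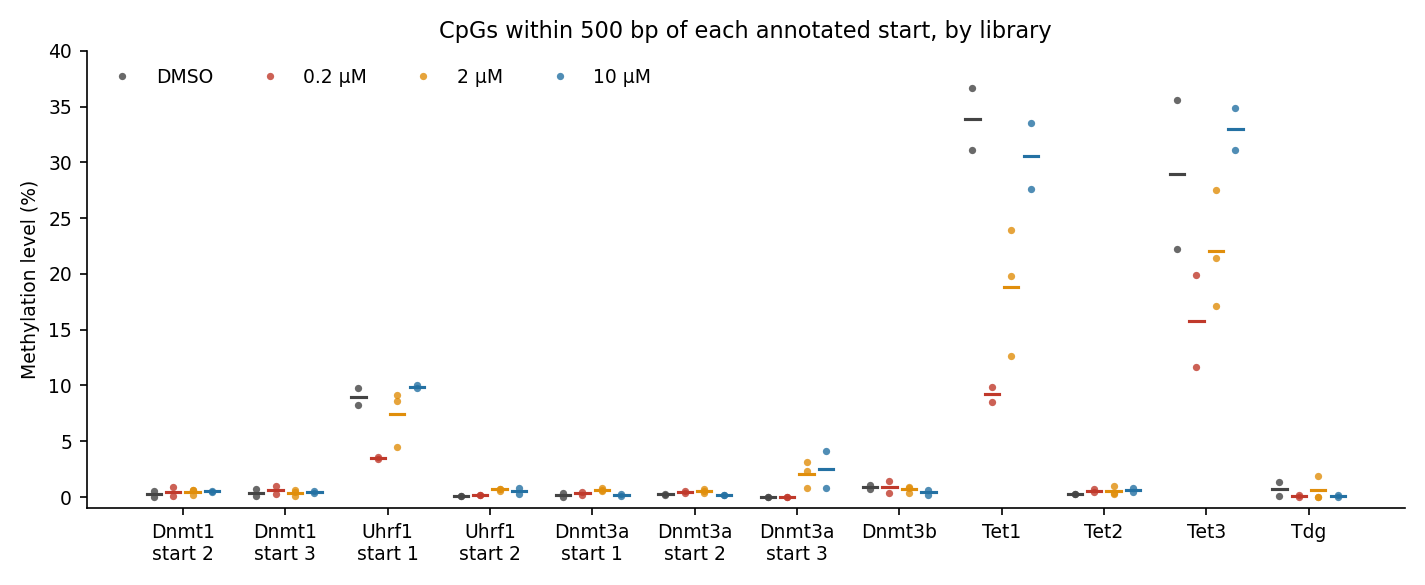
Methylation level (%) of the CpGs within 500 bp of the 12 annotated starts that had enough reads, by gene and start. Each point is 1 library, the bar is the group mean, and colours give DMSO and the 3 doses. Tet1 and Tet3 stand at 22.2 to 36.6% in DMSO and the first Uhrf1 start at 8.24 and 9.77%, while the other 9 starts stay under 5% in every library.

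**Figure D2:**
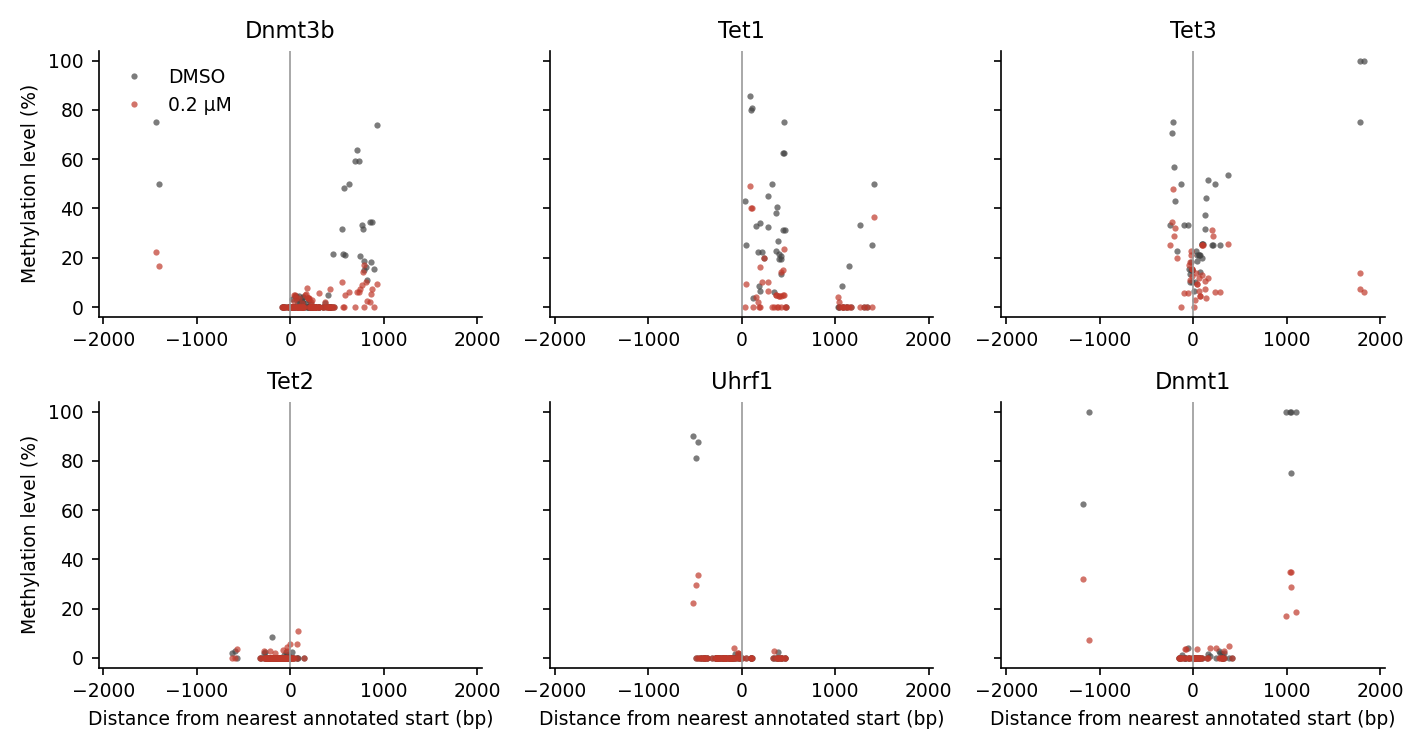
Level (%) of single CpGs within 2 kb of the nearest annotated start of 6 genes, as group means in DMSO (grey) and at 0.2 µM (red), against the distance from that start in bp. Dnmt1, Tet2 and Dnmt3b have a low core at the start, and Dnmt3b rises to 11.0 to 73.9% in DMSO from 554 to 933 bp after it. Tet1 carries methylation from 40 to 476 bp after its start, and Tet3 around and before its start.

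Gene bodies were highly methylated in the control and fell at 0.2 µM to between 23.0% (Tet2) and 51.2% (Tet1) of that level. To keep island starts out, bodies were taken as CpGs more than 2 kb from every annotated start and gene end. Dnmt1 (34 such CpGs, 87 to 287 reads per library) was at 90.5 and 94.5% in DMSO and at 22.8 and 26.3% at 0.2 µM. Its 2 µM libraries were at 50.3, 42.5 and 61.0% and its 10 µM libraries at 67.8 and 69.2%. The 4 groups did not overlap, and the order was 0.2 µM, 2 µM, 10 µM and DMSO from lowest to highest. Against DMSO the adjusted p was 9.24e-05 at 0.2 µM, 0.00112 with 2 µM and 0.0433 with 10 µM. The 10 µM call was lost without either DMSO library (0.289 and 0.204), without either 10 µM library (0.172 and 0.106), without either 0.2 µM library (0.0744 in both cases) and without 2 µM replicate 1 (0.0637).

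Dnmt3a (43 CpGs, 171 to 423 reads) was at 92.3 and 93.1% in DMSO. It fell to 27.2 and 31.3% at 0.2 µM, 50.4, 53.6 and 55.2% with 2 µM and 68.8 and 58.0% with 10 µM, with adjusted p of 1.86e-05, 0.000236 and 0.0123. Again no groups overlapped. The 10 µM call was lost without DMSO replicate 1 (0.244), DMSO replicate 2 (0.124) or 10 µM replicate 1 (0.0784). Dnmt3b was thinly covered here (7 CpGs, 12 to 92 reads). It was at 85.7 and 90% in DMSO, 24.4 and 23.4% at 0.2 µM, 44.1, 32.8 and 78.8% with 2 µM and 63.2 and 83.3% with 10 µM. All treated libraries lay below DMSO, but 2 µM and 10 µM overlapped. Only 0.2 µM passed the test (adjusted p = 0.0189, against 0.116 and 0.583), and leaving out any 1 library of those groups ended the call (0.0562 to 0.191).

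Uhrf1 (30 CpGs, 122 to 245 reads) was at 93.0 and 84.3% in DMSO and at 38.1 and 27.7% at 0.2 µM (adjusted p = 0.000929). At 2 µM it was at 71.4, 68.0 and 49.3% (0.0250) and at 10 µM at 81.8 and 76.0% (0.485). Groups did not overlap, although replicate 3 of the 2 µM group stood well below its other libraries. The 2 µM call was lost without either DMSO replicate 1 (0.252) or 2 (0.0704).

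Tet2 and Tet3 separated all 4 groups. Tet2 (14 CpGs, 31 to 138 reads) was at 92.1 and 91.4% in DMSO, 23.4 and 18.7% at 0.2 µM, 50.2, 54.4 and 47.2% with 2 µM and 65.8 and 67.9% with 10 µM. Adjusted p was 0.000153, 0.00181 and 0.0623. Tet3 (59 CpGs, 171 to 547 reads) was at 93.1 and 95.5% in DMSO and fell to 30.1 and 30.2% at 0.2 µM (4.84e-05). It was at 63.0, 66.4 and 50.9% at 2 µM (0.000918) and at 81.7 and 83.2% with 10 µM (0.100). Both calls of each gene at 0.2 and 2 µM held when any single library was left out.

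Tet1 had the smallest drop of the 7 bodies at 0.2 µM. Its body (29 CpGs, 79 to 249 reads) was at 87.5 and 83.4% in DMSO and at 45.2 and 42.3% at 0.2 µM (adjusted p = 0.00769). The 2 µM libraries, at 71.8, 41.6 and 52.8% (0.0182), overlapped the 0.2 µM libraries, and the 10 µM libraries were at 69.8 and 70.4% (0.334). Without DMSO replicate 1 the call at 0.2 µM was lost (0.0967) and so was that with 2 µM (0.199), which also failed without DMSO replicate 2 (0.0834). Tet1 was also the only member whose far end could be tested, on 4 CpGs with 16 to 71 reads. That end was at 100 and 90% in DMSO, 47.3 and 40.8% at 0.2 µM, 43.8, 42.7 and 50.6% with 2 µM and 82.8 and 67.8% with 10 µM. It was lower than DMSO at 0.2 µM (adjusted p = 0.00190) and 2 µM (0.00314), and these 2 doses overlapped. Without DMSO replicate 1 both calls were lost (0.0501 and 0.0844). Tdg and Dnmt3l had 1 such body CpG each, with 1 to 6 and 1 to 10 reads, and were not tested.

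The order of the groups was that of all genes, whose 8160 bodies had medians of 26.1% at 0.2 µM, 45.0% with 2 µM, 62.4% with 10 µM and 81.6% in DMSO. The share of those bodies whose groups did not overlap is not given here, so the separation seen above is not particular to the members. All 7 tested bodies were lower at 0.2 µM than in DMSO, a state shared by 93.3% of the 8160 bodies of all genes. At 2 µM 6 of 7 were lower (all but Dnmt3b) against 78.2%, and at 10 µM 2 of 7 (Dnmt1 and Dnmt3a) against 14.9%. The 10 µM count was 0 with every covered CpG, with reads scaled for their correlation, in fits of only the groups compared and with the replicate number as a block. Between doses, 5 of 7 were higher at 2 µM than with 0.2 µM (Dnmt1, Uhrf1, Dnmt3a, Tet2 and Tet3) against 38.9% of all bodies, and 1 of 7 (Tet3, adjusted p = 0.0245) was higher with 10 µM than with 2 µM against 22.3%. That last call was lost without either DMSO library (0.0613 in both cases) or either 10 µM library (0.156 and 0.124). Of the 5 calls between 0.2 and 2 µM, those of Dnmt3a and Tet3 held without any single library. That count of 5 was 0 with reads scaled for their correlation, 0 of 4 with at least 5 reads per CpG and 2 in fits of the groups compared. The others were lost without 0.2 µM replicate 2, with adjusted p of 0.0527 for Dnmt1, 0.157 for Uhrf1 and 0.0821 for Tet2. Dnmt1 was also lost without 0.2 µM replicate 1 (0.0751), as was Uhrf1 (0.0607), and Uhrf1 without 2 µM replicate 1 (0.0569) or 2 (0.0574).

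**Figure D3:**
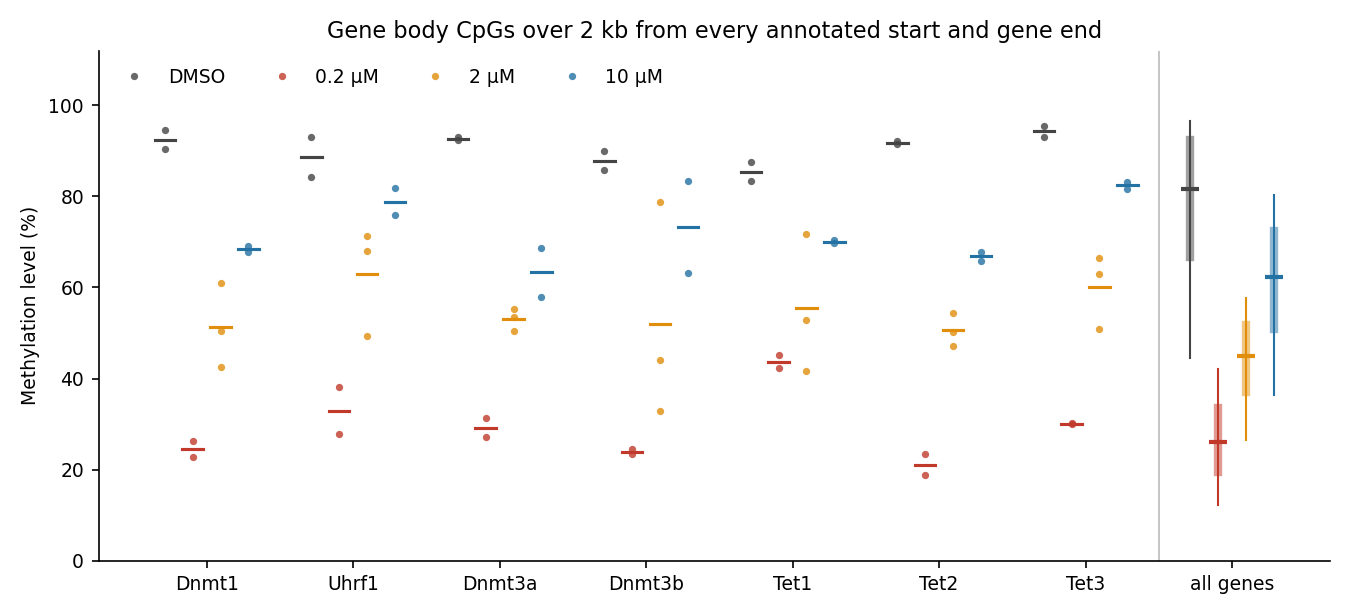
Methylation level (%) of body CpGs more than 2 kb from every annotated start and gene end, for the 7 members with enough reads, and for the 8160 bodies of all genes. Points are libraries and short bars group means; for all genes the mark is the median, the thick bar the quartiles and the thin line the 10th to 90th percentile. The order 0.2 µM, 2 µM, 10 µM, DMSO holds for the means of all 7 genes and for the medians of all genes.

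The share of the control level that remained put the members among other genes. Over the 4334 bodies of all genes at 80% or more in DMSO, the median share was 33.3% at 0.2 µM, 55.3% with 2 µM and 77.7% with 10 µM. For the 7 members the medians were 31.5, 59.1 and 82.0%. At 0.2 µM the shares ran from 23.0% for Tet2 and 26.5% for Dnmt1 to 51.2% for Tet1, which stood close to the 90th percentile of all genes (51.2%). At 2 µM they ran from 55.1% for Tet2 to 71.0% for Uhrf1, above the 90th percentile of 67.0%. At 10 µM Dnmt3a had kept the least, 68.4%, and Uhrf1 the most, 88.9%. The order of the genes was therefore not the same at each dose, and these shares were not tested between genes.

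**Figure D4:**
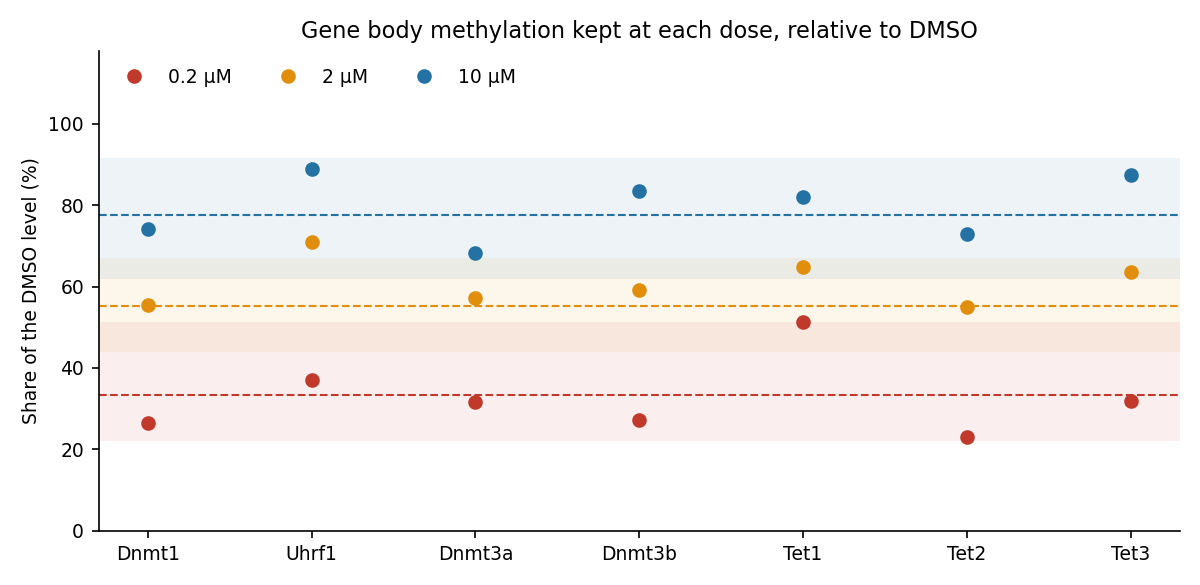
Share of the DMSO level (%) left in the bodies of 7 members at each dose. Points are ratios of group means, dashed lines the medians of 4334 genes and shaded bands their 10th to 90th percentiles; Tet1 at 0.2 µM (51.2%) and Uhrf1 with 2 µM (71.0%) are the highest points of their doses.

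Counting every window of the genes as first laid out (start, far end, and the whole body with its inner starts), 14 of 27 windows had enough reads. At 0.2 µM 12 of the 14 were lower than in DMSO, where 63.5% of the 36448 windows of all genes were. The 2 that were not called were the starts of Tet2 and Tdg. At 2 µM 11 were lower (48.8% of all windows), the start of Uhrf1 joining those not called, and without DMSO replicate 1 only 5. At 10 µM the bodies of Dnmt1 and Dnmt3a were lower (9.03%), and neither was without either DMSO library or either 10 µM library; 1 was without any other library. With all reads of a body summed, both were above DMSO at 10 µM, by 4.1 points for Dnmt1 and 0.453 for Dnmt3a, and neither passed the test. Over all genes, the 3292 windows lower at 10 µM became 0 without DMSO replicate 1 and 1 without DMSO replicate 2. Higher at 2 µM than with 0.2 µM were 7 windows (24.1%): the Tet1 start and the bodies of Dnmt1, Uhrf1, Dnmt3a, Dnmt3b, Tet2 and Tet3. That count was 3 without 0.2 µM replicate 2. Higher at 10 µM than with 2 µM were 4 windows (14.8%): the bodies of Dnmt1, Dnmt3a and Tet3 and the Tet1 far end. That number became 0 without either 10 µM library and 2 without either DMSO library or without 2 µM replicate 1. No member window was called higher than DMSO at any dose, although some means were above it, such as the Tet2 start at 10 µM (0.622% against 0.346%). Because most windows of the genome fell, the test was also made against a median change. That median was taken over the 17745 windows of all genes at intermediate levels in DMSO. Windows with very low or very high levels, the Tet2 body (91.8% in DMSO) among them, had no part in it. Against that median, 1 of the 14 windows, the Tet2 body, was lower at 0.2 µM (adjusted p = 0.0168), where 9.72% of all windows were. None was lower at 2 or 10 µM in that quasi-binomial test with limma, where 2 and 1 windows had an unadjusted p under 0.05. Of all windows 6.6 and 0.0274% were lower at these doses. Windows called on the other side, above the level that the median change would give, were the Dnmt3a body and the Tet2 start at 0.2 µM, and the Dnmt3a body and the Uhrf1 start at 2 µM. The Tet2 start (0.346% in DMSO) and the Uhrf1 start (3.91%) lay below the levels that the median was taken from and had little room to fall. The Dnmt3a body as laid out holds island CpGs near 0%. These calls therefore do not show a gain. For the bodies away from starts the same test called 4 of 7 lower at 0.2 µM (Dnmt1, Dnmt3a, Tet2 and Tet3, adjusted p between 0.00655 and 0.0195) and 1 of 7 at 2 µM (Dnmt3a, 0.0210). At 10 µM it called 0, with 3 at an unadjusted p under 0.05. Dnmt3a thus stood on opposite sides of the median change by whether its island CpGs were counted with the body. The 4 bodies called at 0.2 µM (91.8 to 94.3% in DMSO) lay above the levels that the median was taken from. The share of all bodies that this test called is not given here. Among the 4334 highly methylated bodies above, the share kept at 0.2 µM put Dnmt3a and Tet3 at percentiles 42.8 and 44.4. Dnmt1 was at 23.4 and Tet2 at 12.2, and with 2 µM Dnmt3a was at 59.4. These calls therefore do not show a larger fall than in other highly methylated bodies.

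Dnmt3l was the member that RRBS could barely read. Its 6 shared CpGs, all in the body, were at 95.8 and 83.3% in DMSO, 27.8 and 42.9% at 0.2 µM, 54.4, 56.8 and 53.7% with 2 µM and 78.9 and 100% with 10 µM, on 7 to 44 reads per library and without a test. For its start, reads were summed over every CpG that any library covered from 2 kb outside to 1 kb inside the first start. In DMSO 13 of 18 and 4 of 5 reads were methylated, that is 72.2% (95% Wilson interval 49.1 to 87.5%) and 80% (37.6 to 96.4%). At 0.2 µM it was 1 of 11 (9.09%, 1.62 to 37.7%) and 4 of 28 reads (14.3%, 5.70 to 31.5%). Both 0.2 µM libraries lay below both DMSO libraries. At 2 µM it was 12 of 14 (85.7%, 60.1 to 96.0%), 16 of 22 (72.7%, 51.8 to 86.8%) and 8 of 15 reads (53.3%, 30.1 to 75.2%), spread around the DMSO values. At 10 µM replicate 1 had 24 of 32 (75%, 57.9 to 86.7%) and replicate 2 no reads. Reads of neighbouring CpGs can come from 1 fragment, and the intervals cover counting error only. No CpG of this start window was read in all 9 libraries, so the libraries are compared on different CpGs. Over the whole gene, 74.1% of 143 reads were methylated in DMSO, 18.8% of 276 at 0.2 µM, 57.1% of 322 with 2 µM and 62.5% of 168 with 10 µM.

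Gene starts that are methylated in body cells and open in the germ line were set beside Dnmt3l. Of 12 listed genes, among them Dazl and Ddx4 (germ cell RNA-binding factors) and Sycp1 and Sycp3 (proteins of the synaptonemal complex of meiosis), 11 had a testable start. In DMSO the means of these starts ran from 83.5% (Asz1) to 98.8% (Ddx4), with a median of 90.7%. At 0.2 µM they ran from 41.9 to 79.9% with a median of 55.9%, at 2 µM from 46.0 to 68.5% with a median of 53.7%, and with 10 µM from 63.8 to 83.7% with a median of 72.6%. All 11 were lower than DMSO at 0.2 and 2 µM and 3 (Dazl, Hormad1 and Sycp1) were at 10 µM. Of the 12633 start windows of all genes, 38.3, 25.6 and 4.44% were. Of those windows 57.2% were under 5% in DMSO and had little room to fall, unlike the listed starts. The 3 calls at 10 µM did not hold with the replicate number as a block. In that fit 0 of the 36448 windows of all genes were lower at 10 µM. The 2 measures are unlike: the listed starts are means over CpGs shared by all libraries, and the Dnmt3l values are summed reads of CpGs that differ between libraries. What part this plays in the differences was not tested. Both Dnmt3l values at 0.2 µM (9.09 and 14.3%) were below the lowest of these starts (41.9%), and those intervals ended below it too. In its sequence Dnmt3l also stood apart from the list. Its first start has 6 CGs in 300 bases, whereas the 12 listed genes have 15 to 38 at their most CG-rich start. Its DMSO values (72.2 and 80%) were below the lowest listed start too (83.5%), and at 2 µM 85.7 and 72.7% were above the highest (68.5%) and 53.3% within the range. The intervals of those 4 values outside the range reached into it. The window at the first Dnmt3l start was thus mostly methylated in DMSO, as germline-type starts are. The CG content of that start and most values of the window lay outside the range of the listed starts. Inside the 300 bases of each of the 3 annotated Dnmt3l starts no library read a CpG. The span of Dnmt3l reaches into Aire, and which gene the methylation of this window belongs to was not tested. No test was made on reads this few.

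**Figure D5:**
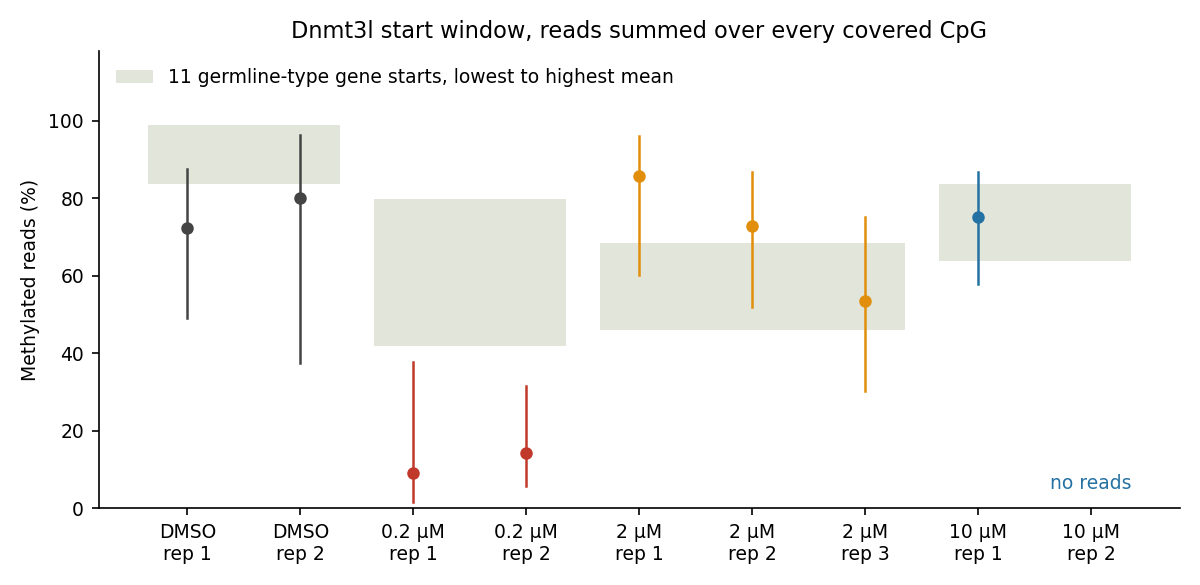
Methylated reads (%) in the Dnmt3l start window by library, summed over every covered CpG, with 95% Wilson intervals that cover counting error only. Shaded boxes span the lowest to highest mean of 11 germline-type gene starts in each group, taken over CpGs shared by all libraries and so a different measure. The 0.2 µM libraries (9.09 and 14.3%) lie below the box that begins at 41.9%.

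The window at the outermost Dnmt1 end, near its first start, held 3 shared CpGs with 5 to 21 reads and was not tested. It was at 83.3 and 91.7% in DMSO, 23.3 and 14.3% at 0.2 µM, 16.7, 55.6 and 66.7% with 2 µM and 94.4 and 100% with 10 µM. Dnmt1 therefore had a methylated upstream end beside the unmethylated island farther in. By distance over the 4 group means, the starts most like it among 11690 were those of Tmc4 (9.05 points away), 4930479H17Rik (11.9), Ccl17 (12.9) and Gm8075 (13.3).

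Other genes of methylation and demethylation followed the same division. Of 43 listed genes, 28 had a testable start, and 21 of these were under 5% in DMSO. Called lower than DMSO were 6 starts at 0.2 µM, 4 with 2 µM and 1 with 10 µM, and none was called higher. Those shares of 28 were below the 38.3, 25.6 and 4.44% of the start windows of all genes. Of their 16 testable bodies away from the starts, 16, 14 and 2 (Kdm1b and Parp1) were lower at 0.2, 2 and 10 µM. Among the bodies of all genes 93.3, 78.2 and 14.9% were, close to the shares of this list. Its medians were 86.0% in DMSO, 26.2% at 0.2 µM, 48.3% with 2 µM and 61.2% with 10 µM. The start of Slc29a1, a nucleoside transporter, was at 93.7 ± 0.704% in DMSO, 28.5 ± 7.02% at 0.2 µM, 56.1 ± 1.92% with 2 µM and 78.1 ± 12.8% with 10 µM (adjusted p = 4.8e-05, 0.000842 and 0.0864). Uhrf2, the paralogue of Uhrf1, was at 24.3 ± 0.495% in DMSO and lower at all doses, 9.13 ± 2.28%, 12.4 ± 2.52% and 13.4 ± 0.927% (0.000271, 0.00146 and 0.0238). The 10 µM call of Uhrf2 did not hold with the replicate number as a block. In that fit 0 of the 36448 windows of all genes were lower at 10 µM. Cda, which encodes the deaminase that inactivates cytidine analogues, was at 25.5 ± 5.17% in DMSO, 8.97 ± 2.76% at 0.2 µM and 13.9 ± 2.53% with 2 µM (0.00309 and 0.0346). Cxxc4, a CXXC domain gene, was at 42.0 ± 0.646% in DMSO, 20.8 ± 4.91% at 0.2 µM and 22.7 ± 4.96% with 2 µM (0.00481 and 0.0148). At 10 µM neither Cda (21.2 ± 7.92%) nor Cxxc4 (36.8 ± 11.9%) passed the test.

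The libraries of a group were alike overall. Over the 1096949 shared CpGs the mean level was 37.5 and 37.7% in DMSO, 16.5 and 16.7% at 0.2 µM, 22.7 to 23.2% with 2 µM and 30.6 and 30.8% with 10 µM. Reads at CpGs numbered between 8590777 and 16495423 per library, with DMSO replicate 2 and 10 µM replicate 2 the shallowest, at a median of 3 reads per CpG against 4 or 5 in the others. As RRBS measures no expression, the cell type was checked only at gene starts. Of 4 testable starts of 7 B lineage genes, Ebf1, Vpreb1 and Blnk were under 5% in DMSO and Pax5 was at 28.6%. None of 6 T lineage starts was testable. The 1 testable myeloid start, Cebpa, was at 15.2% and the 1 testable fibroblast start, Col1a2, at 49.4%. What part other cells play in any level was not tested.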

How the data were processed

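RRBS libraries of 9 samples were analysed, and the members and gene lists were chosen with earlier results of these data known. Each deposited table gives CpG positions, a text entry of methylated over all reads, and a score; the deposited score is 1000 times the methylated share, rounded down. The genome build, mm10, comes from the submitters' processing notes; for the aligner and caller, the names were not given in the sources used here. Parental alleles are not separated in the deposited calls, and CpGs that differ between the parental strains were kept; their part in any level was not tested. Of 256267 positions inside 32841 RefSeq promoters (GRCm38.p6), all 256267 fell on a CG.

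Reads were taken from the text entry. A window's level is the unweighted mean over CpGs with at least 1 read in each of 9 libraries; a window needed 3 CpGs and 10 reads in each. Levels were tested with a quasi-binomial model, 1 level per group over all libraries, weighted by effective reads, with dispersion moderated by limma 3.58.1 (R 4.3.3), not under 1, and a deviance F test. P-values were Benjamini-Hochberg adjusted over 36448 windows, threshold 0.05. Windows within 500 bp of annotated starts, bodies over 2 kb from starts and ends, and the summed Dnmt3l reads were added after the annotation and coverage were seen; the first 2 kinds were adjusted over their own 22394 windows. Named pathway genes were the 4 starts with the largest change at 2 µM among those called at any dose; neighbours of a start at 50% or more in DMSO were the 4 nearest over group means among starts with 20 reads in each library. The code was tested on simulated data in which few windows changed. Of 200 windows given a known fall, 43 were called at 0.2 µM, 58 with 2 µM and 18 with 10 µM, and 0 unchanged windows were called. Most of those falls were missed, so a window that was not called cannot be taken as unchanged. Alternatives varied the CpG and read minimums, the window size, the weighting, the model, the libraries and the centring.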

Additional observations from a re-analysis of the deposited data

How the results depend on the processing

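Groups held 2 or 3 libraries, and the median depth of a CpG was 3 to 5 reads. The counts of member windows called (lower than DMSO: 12 at 0.2 µM, 11 with 2 µM, 2 with 10 µM; also 7 higher at 2 µM than 0.2 µM and 4 higher at 10 µM than 2 µM) were remade under 21 alternatives. They stayed within 1.5 times of these in 20, 17, 4, 16 and 9 of them. Leaving out 1 library gave 10 to 12, 5 to 11, 0 to 1, 3 to 7 and 0 to 4; the 5 came without DMSO replicate 1. In that order of comparisons, testing against the median change of the 17745 windows at intermediate levels in DMSO gave 1, 0, 0, 0 and 0. Of all windows that test called 9.72, 6.6, 0.0274, 1.37 and 0%. A minimum of 5 reads per CpG gave 8, 7, 0, 0 and 0, and summed reads gave 11, 5, 0, 6 and 2. Every covered CpG gave 12, 8, 0, 9 and 2, windows of 500 bp gave 9, 8, 1, 6 and 4, and reads scaled for their correlation gave 11, 10, 0, 2 and 0. Fits of only the 2 groups compared gave 12, 9, 0, 4 and 0. The replicate block gave 12, 11, 0, 5 and 0. Deviations of libraries with the same number correlated at -0.0153 to 0.00541 over 12 pairs, and those with different numbers at -0.00683 to 0.0153 over 18. In a group of 2 libraries the deviations mirror each other. These values therefore show no pairing by number but cannot settle whether libraries with the same number were handled together. Of 62 called comparisons of a window, 18 stayed called in every alternative that tested them, the test against the median change aside. Of the same 62, 4 changed direction in any alternative (those not called were not counted): Dnmt3b start at 0.2 µM (0.0563 points with 500 bp windows), Tet3 start at 0.2 µM (0.153 with 1 kb and 0.530 with 500 bp), Dnmt3a body at 10 µM (1.85 with every CpG and 0.453 with summed reads) and Dnmt1 body at 10 µM (4.1 with summed reads). The smaller windows hold fewer CpGs; otherwise the cause was not tested. For all genes, the 3292 windows lower at 10 µM became 0 with the replicate block and 0 without DMSO replicate 1.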
